A study of Mus musculus with 10 samples.

Results

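The Cyp1 genes, Cyp1a1, Cyp1a2 and Cyp1b1, are the classical targets of the aryl hydrocarbon receptor (AHR). Every AHR ChIP-seq peak of the mouse colon organoid study that lay in one of these 3 genes or within 10 kb of either end (GENCODE M21 annotation, GRCm38 assembly) was taken, together with the interval between Cyp1a2 and Cyp1a1. That gave 4 of the 123652 wild type peaks and 0 of the 1931 AHR KO peaks. Cyp1a1 had 3 of the 4, Cyp1b1 had 1 and Cyp1a2 had 0. The genes were 3 of 21938 protein-coding genes. Under the same rule 2 of the 3 had a wild type peak, against 78.3% of all protein-coding genes, and 0 had an AHR KO peak, against 4.47%.

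Colon organoids, epithelial cultures grown from intestinal stem cells, were grown in WENR, a medium for the stem cell condition. All received FICZ, a ligand of AHR, at 5 nM for 1 hour, so no sample without ligand was compared. Wild type organoids gave 4 AHR ChIP libraries, each with an input library of sheared chromatin, and AHR knockout organoids (AHR KO) gave 1 ChIP and 1 input library. The study's methods place a Villin-driven Cre and a floxed Ahr gene in its mice, so that the receptor is removed in epithelium, and name biological replicates for both genotypes, while the labels of these samples say only AHR knockout. Each genotype was represented by a single peak list. The wild type values below therefore have no replicate check, and no test between genotypes was run.

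AHR waits in the cytoplasm, binds flat aromatic ligands such as the tryptophan derivative FICZ, moves to the nucleus and pairs with ARNT on the DNA word TNGCGTG, whose core is GCGTG (N is any base). The Cyp1 genes encode monooxygenases that oxidise these ligands, so that the products of the targets clear the signal that induced them. Cyp1a1 is the strongly induced member in gut and other barrier epithelia, Cyp1a2 is mainly a liver enzyme that lies head to head with Cyp1a1, and Cyp1b1 is found in many tissues outside the liver.

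Cyp1a1 (ENSMUSG00000032315.6) spans chr9:57687928-57703824 on the + strand and has 2 annotated transcripts, the longer Cyp1a1-202, which starts at 57687928, and Cyp1a1-201, which starts at 57697613. Cyp1a2 (ENSMUSG00000032310.4) spans chr9:57676937-57683703 on the - strand. Cyp1b1 (ENSMUSG00000024087.4) spans chr17:79701537-79715061 on the - strand, with the starts of Cyp1b1-202 at 79715061, of Cyp1b1-201 at 79715041 and of Cyp1b1-203 at 79713655.

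The 4 peaks are described as 2 pairs by their place, and the sequences of 3 of them are shown. The first pair are the promoter peaks of Cyp1a1 and Cyp1b1, given as the 300 bases that hold all of their cores, 5′ to 3′ on the strand of the gene (GRCm38). Capitals mark GCGTG, or CACGC where the core is on the other strand.
Cyp1a1 promoter peak, chr9:57696518-57696817, + strand: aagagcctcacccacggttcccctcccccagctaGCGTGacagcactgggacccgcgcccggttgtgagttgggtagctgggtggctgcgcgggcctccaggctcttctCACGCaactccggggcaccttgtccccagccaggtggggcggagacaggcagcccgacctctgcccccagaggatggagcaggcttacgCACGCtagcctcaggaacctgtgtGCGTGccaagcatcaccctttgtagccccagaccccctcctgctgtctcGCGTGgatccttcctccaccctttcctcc
Cyp1b1 promoter peak, chr17:79715802-79716101, - strand: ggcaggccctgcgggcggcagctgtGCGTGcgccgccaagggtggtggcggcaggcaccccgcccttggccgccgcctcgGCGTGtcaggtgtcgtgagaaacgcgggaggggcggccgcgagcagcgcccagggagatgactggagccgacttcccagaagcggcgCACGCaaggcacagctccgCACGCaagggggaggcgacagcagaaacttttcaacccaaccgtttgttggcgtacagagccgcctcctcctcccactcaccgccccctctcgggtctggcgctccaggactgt

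The second pair are peaks on the far side of Cyp1a1, chr9:57708790-57709063 and chr9:57710962-57711142, inside the first intron of its neighbour Edc3, a gene for an mRNA decapping cofactor. The nearer is mixed, with 3 GCGTG and 59.9% G and C besides its repeat. The farther of them is shown whole, as an example of a peak built around a run of TG, which is the CA repeat read from the other strand. It has no GCGTG and so no capitals.
Peak farther from Cyp1a1, chr9:57710962-57711142, + strand: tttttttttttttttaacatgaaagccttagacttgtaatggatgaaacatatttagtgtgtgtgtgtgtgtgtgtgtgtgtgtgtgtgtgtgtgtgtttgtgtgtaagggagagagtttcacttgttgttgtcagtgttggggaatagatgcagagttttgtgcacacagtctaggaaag

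Cyp1a1 carried the strongest of the 4 peaks. It ran over 513 bp at chr9:57696412-57696924 and had a score of 18.0. The score is the fold enrichment deposited for each peak, that is, the ChIP pileup plus 1 divided by the expected background plus 1. This peak ranked 79 of the wild type list, in the top 0.0639%, and 4.15% of wild type peaks were wider. Its midpoint was at -945 bp from the start of Cyp1a1-201, within the promoter (1000 bp upstream to 100 bp downstream of a start). The same peak lay in the first intron of Cyp1a1-202, 8740 bp into that transcript. It was therefore upstream of one annotated start of Cyp1a1 and downstream of the other.

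Cyp1b1 had a single peak of 312 bp at chr17:79715797-79716108, with a score of 10.8 and rank 813. It began 736 bp upstream of the gene, and its midpoint was at -891 bp from the start of Cyp1b1-202 and -911 bp from that of Cyp1b1-201. From the start of Cyp1b1-203 the midpoint was at -2297 bp. The main peaks of Cyp1a1 and Cyp1b1 thus sat at nearly the same distance ahead of Cyp1a1-201 and of Cyp1b1-202 and Cyp1b1-201, but not of Cyp1b1-203. The Cyp1a1 peak had the higher score and the greater width.

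The other 2 peaks of the Cyp1a1 window were lower. The nearer, of 274 bp and score 7.62 (rank 8888), lay 4966 bp past the end of Cyp1a1 and 386 bp into Edc3. The farther, of 181 bp and score 5.65 (rank 40916), lay 7138 bp past the end of Cyp1a1 and 2512 bp into Edc3. Edc3 was the gene with the nearest start to both. The median score over all wild type peaks on chromosomes 1 to 19, X and Y was 5.32 (quartiles 4.54 and 5.98), so the farther peak was within the middle of the list and the other 3 were above its upper quartile.

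Cyp1a2 had no peak of either list in its gene or within 10 kb. The interval between the genes, 4.22 kb from the start of Cyp1a2 to that of Cyp1a1-202, held 0 wild type and 0 AHR KO peaks. Read to the start of Cyp1a1-201, the interval is 13.9 kb and holds 1 wild type peak, the Cyp1a1 promoter peak. That peak lay 12.7 kb ahead of Cyp1a2, outside its window, and its midpoint was at -12.965 kb from the start of Cyp1a2. The closest peak on the other side was chr9:57664896-57665256, with a score of 5.86 and a window that was 100% repeat, 11.7 kb past the end of Cyp1a2.

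**Figure D1:**
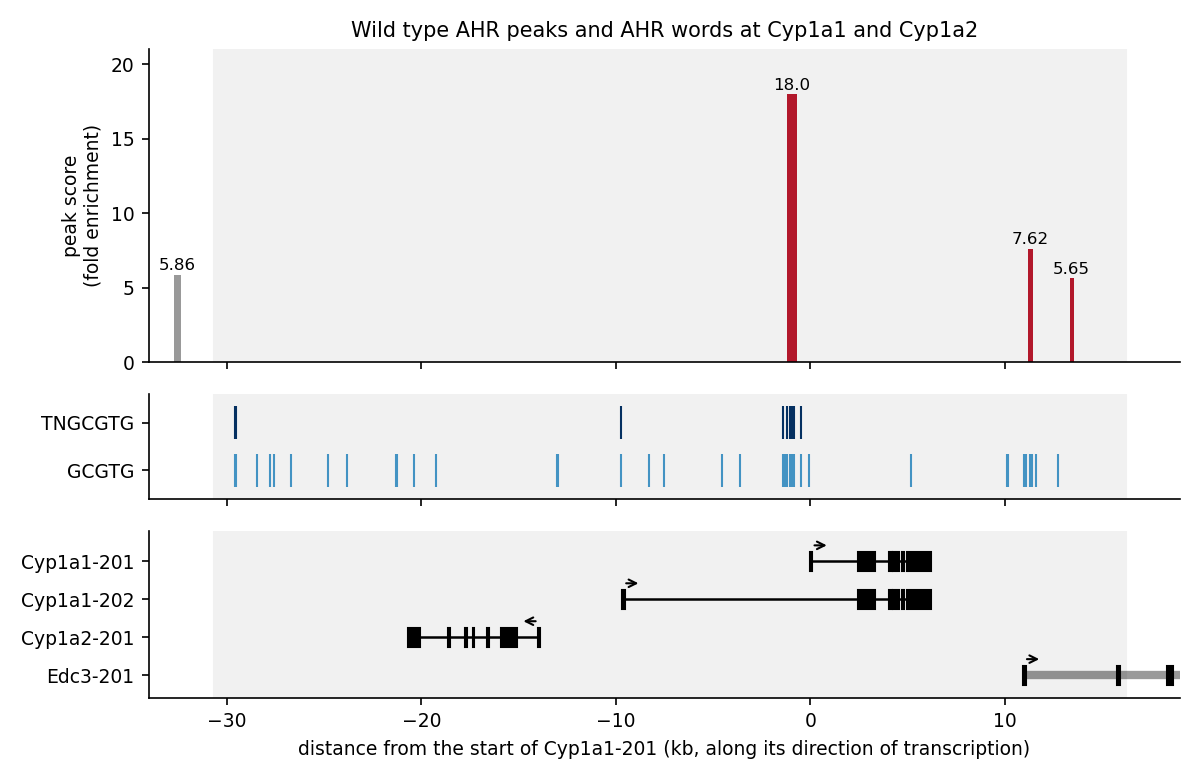
Scores of wild type peaks (top, bars, fold enrichment), GCGTG and TNGCGTG words on both strands (middle, drawn for the shaded windows) and transcripts (bottom, exons as boxes for Cyp1 genes, arrows at the starts) against distance in kb from the start of Cyp1a1-201. The peak of 18.0 stands just ahead of Cyp1a1-201 among a cluster of TNGCGTG words, those of 7.62 and 5.65 stand in Edc3, and the Cyp1a2 gene has none.

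**Figure D2:**
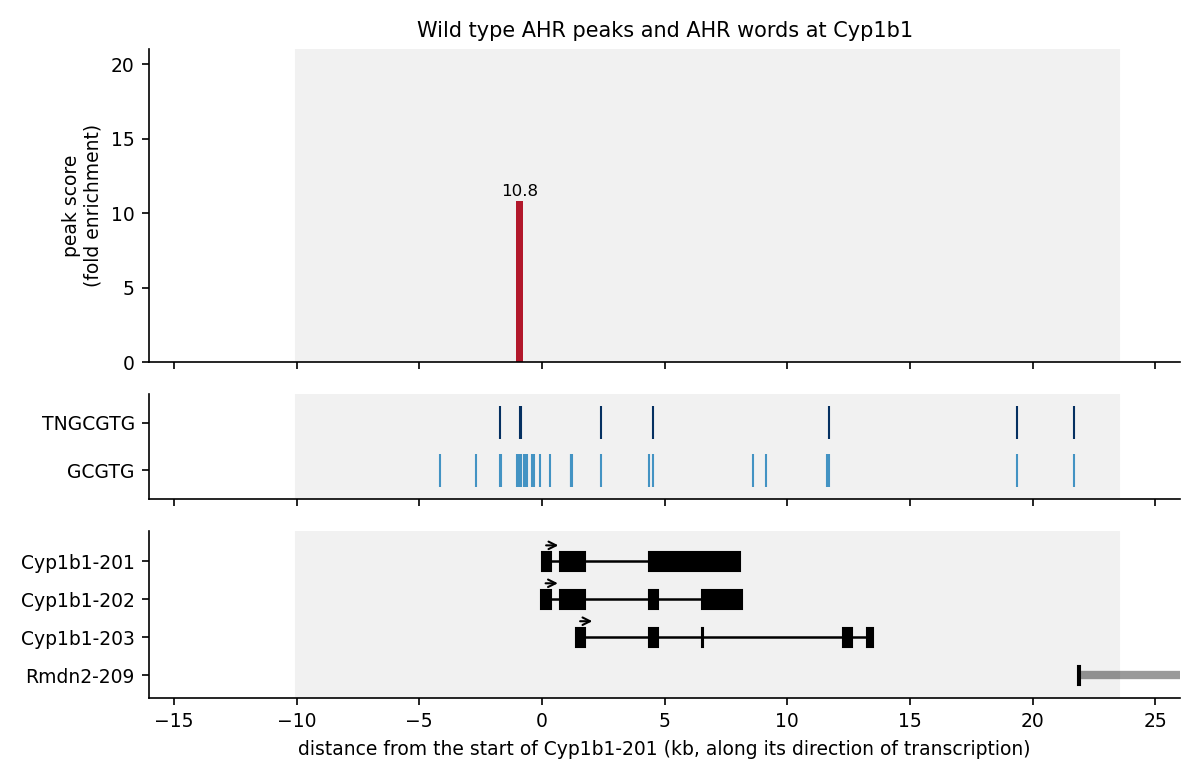
The same for Cyp1b1, with distance in kb from the start of Cyp1b1-201 in the direction of transcription, so that upstream is to the left. The single peak, of score 10.8, stands just upstream of the start, and the TNGCGTG words inside and beyond the gene carry no peak.

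A wild type peak as such was common, at the 78.3% of protein-coding genes given above, so having one set neither Cyp1a1 nor Cyp1b1 apart. Longer genes have wider windows. Among the 3634 protein-coding genes of 5 to 10 kb, the length class of Cyp1a2, 68.3% had a peak (95% Wilson interval 66.7 to 69.8), so Cyp1a2 was among the remaining minority. A peak with a score of at least 10 was less common, at 3.89% of protein-coding genes, and 2 of the 3 Cyp1 genes had one. In the 4005 genes of 10 to 20 kb, the class of Cyp1a1 and Cyp1b1, the share was 2.65% (interval 2.19 to 3.19).

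Ranked by the best peak score, Cyp1a1 was 77 and Cyp1b1 575 among the 17178 protein-coding genes that had a peak. The median best score of those genes was 6.31 (quartiles 5.32 and 7.33). Both members were above the upper quartile. Genes that share a peak share its rank, and the same peak is counted for each gene whose window reaches it.

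**Figure D3:**
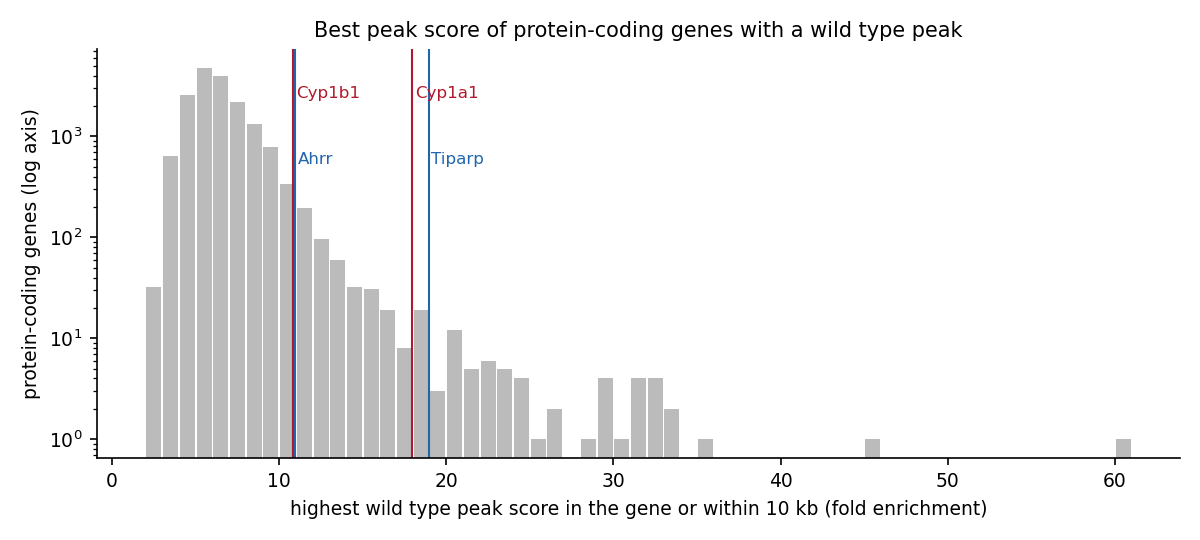
Protein-coding genes by the highest wild type peak score in the gene or within 10 kb (horizontal axis, fold enrichment, bins of 1 unit; vertical log axis, number of genes). Red lines mark Cyp1a1 (18.0) and Cyp1b1 (10.8), blue lines Tiparp (18.9) and Ahrr (10.97), and genes without a peak, Cyp1a2 among them, are not drawn.

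The AHR KO list gave no peak at Cyp1a1, Cyp1a2 or Cyp1b1. The nearest AHR KO peak was 163 kb from Cyp1b1 (chr17:79878288-79878534, score 5.17) and 1063 kb from Cyp1a1 (chr9:58767289-58767709, score 8.00). Of the 4 wild type peaks 0 overlapped one (95% Wilson interval 0 to 49.0%, which covers counting error only). For the list as a whole, 1864 wild type peaks (1.51%) met one. With 1931 AHR KO peaks against 123652 in wild type, the length of the AHR KO list alone keeps this share low. The share was higher among strong peaks. Of the 1313 wild type peaks with a score of at least 10, 307 (23.4%, interval 21.2 to 25.7) overlapped one. Of the 20 such peaks that were under 25% repeat, among them those of Cyp1a1 and Cyp1b1, 1 did (5%, interval 0.888 to 23.6), and that one was near Ripk2, a kinase gene of innate immune signalling.

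The 2 lists differ in depth, which limits what the missing AHR KO peaks can show. Scores of peaks over the genome-wide background fall on whole multiples of a step, from which that background can be read. The wild type background was 2.01 fragments and that of the AHR KO 0.287. The lists also differed in their narrowest peak, of 181 bp in wild type and 247 bp in AHR KO. Per kb of that width the backgrounds were 11.1 and 1.16, a ratio of 9.55. Whether the wild type list came from pooled reads or from merged calls of the 4 libraries is not given in the sources used here. Neither the wild type background nor a wild type pileup can therefore be read as that of a single culture. Of the 1931 AHR KO peaks 333 (17.2%) were on their step. The lowest pileup among these was 5 fragments and the median was 8. At the AHR KO background the score of the Cyp1a1 promoter peak would correspond to 22.1 fragments and that of the Cyp1b1 peak to 13.0. The peaks in Edc3 would correspond to 8.81 and 6.27. Of these fixed-score values, both at the promoters were above the median pileup of the AHR KO peaks on their step, and the lower in Edc3 was below it. The median pileup of the whole AHR KO list is not known, because most of its peaks were off the step. That does not show that the AHR KO had the depth for a peak to be called at either promoter. The local background at these places in the AHR KO was not analysed here, nor was the part that depth had in the absence of AHR KO peaks tested.

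In the wild type list the score of the farther Edc3 peak was on the step and corresponded to 16 fragments, which was also the median pileup of wild type peaks on the step. The other 3 scores were off the step, as happens where the local background exceeds the genome-wide value, and give only a lower limit. The pileup was at least 54 fragments at the Cyp1a1 promoter, 32 at the Cyp1b1 promoter and 22 in the nearer Edc3 peak.

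The promoter peaks of Cyp1a1 and Cyp1b1 held the AHR word and few repeats, while the windows of those in Edc3 held CA repeats and no TNGCGTG. Words were counted on either strand within a window of 200 bp centred on the peak. GCGTG was found in 3 of the 4 windows, against 17.7% of all wild type windows, and TNGCGTG in 2 of the 4, against 2.84%. The 3 windows with GCGTG had 3 copies each. The Cyp1a1 and Cyp1b1 promoter windows had 2 copies of TNGCGTG each, a number reached by 48 of the 123366 wild type windows (0.0389%). Over the whole peak, Cyp1a1 had 5 GCGTG and 4 TNGCGTG, and Cyp1b1 had 4 and 2. At least 4 TNGCGTG in a peak were found in 9 wild type peaks, of which the Cyp1a1 promoter peak had the highest score.

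Soft-masked bases, which mark repeats in the genome sequence, made up 50% or more in 2 of the 4 windows, against 86% of all wild type windows. The share was 0% at the Cyp1a1 promoter and 2% at the Cyp1b1 promoter, and 60% and 50% in the nearer and the farther Edc3 peak. Over the whole peak the Edc3 values were 44.5% and 50.3%, so that 1 of the 4 peaks reached 50%. A CA repeat, here 3 or more copies of the words CACACA and TGTGTG that do not overlap, was found in the same 2 Edc3 windows, with 10 and 8 copies, against 57.3% of all windows. The Cyp1a1 promoter window had 1 copy and the Cyp1b1 window 0. The treatment of reads with several map positions is not given in the sources used here, and it bears on the Edc3 peaks.

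**Figure D4:**
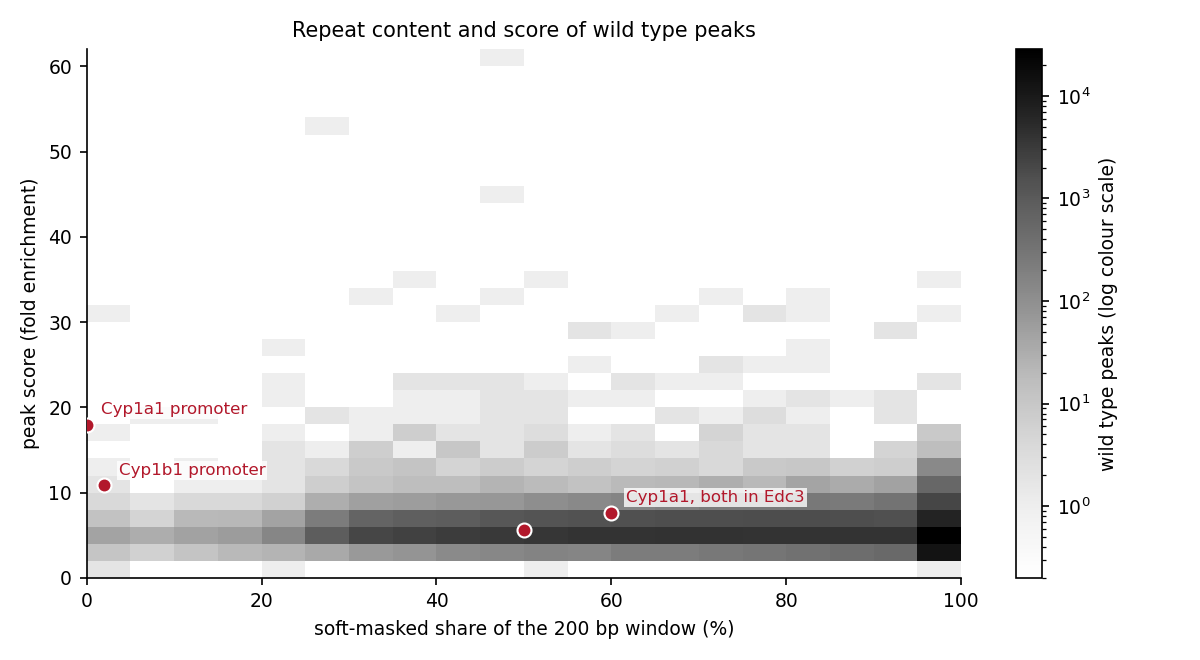
Score (vertical axis, fold enrichment) against the soft-masked share of the 200 bp window (horizontal axis, %) for the 123366 wild type peaks on chromosomes 1 to 19, X and Y, shaded by the number of peaks on a log scale. The Cyp1a1 and Cyp1b1 promoter peaks (red) stand at 0% and 2% masked, where few peaks lie, and the peaks in Edc3 at 60% and 50% lie in the dense part.

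Wild type windows under 25% soft-masked numbered 560 (0.454%). Within them the Cyp1a1 promoter peak ranked 7 and the Cyp1b1 promoter peak 18 by score, and GCGTG was found in 26.6% (interval 23.1 to 30.4). The promoter windows were also rich in G and C, at 67.5% for Cyp1a1 and 68% for Cyp1b1. The median of all wild type windows was 46%. Over the whole peak G and C made up 62.6% at Cyp1a1 and 69.9% at Cyp1b1. The core itself holds a CpG, and the Cyp1a1 peak had 26 CpG and the Cyp1b1 peak 31. The nearer Edc3 peak also had 26 CpG, with 59.9% G and C, and the farther had 0, with 38.1%. The GC box GGGCGG, the word of Sp1-type factors, occurred 2 times in the Cyp1a1 peak, 4 times in the Cyp1b1 peak and in neither Edc3 peak. No copy of TGACTCA, the word of AP-1, or of GGAATG, that of TEAD factors, was found in any of the 4 peaks. In all wild type windows, which are 200 bp and not whole peaks, these were found in 1.28% and 7.24%.

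The single cores show how the 2 promoters differ. Each is given with 10 bases on either side, 5′ to 3′ on the strand that reads GCGTG, with the core in capitals and its position from the start of Cyp1a1-201 in the name.
Cyp1a1 core at -1059 bp: cccccagctaGCGTGacagcactgg
Cyp1a1 core at -984 bp: ccccggagttGCGTGagaagagcct
Cyp1a1 core at -895 bp: cctgaggctaGCGTGcgtaagcctg
Cyp1a1 core at -871 bp: gaacctgtgtGCGTGccaagcatca
Cyp1a1 core at -822 bp: ctgctgtctcGCGTGgatccttcct

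All but the core at -871 bp of Cyp1a1 have the T of TNGCGTG at the second base ahead of the core. The 4 full words were 75, 89 and 73 bp apart, and neighbours among them were on opposite strands except for those at -984 and -895 bp. They lay at -114, -39, 50 and 123 bp from the midpoint of the peak, so that the outer pair fell outside the 200 bp window.

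At Cyp1b1 the positions are from the start of Cyp1b1-201.
Cyp1b1 core at -872 bp: cctcccccttGCGTGcggagctgtg
Cyp1b1 core at -891 bp: gctgtgccttGCGTGcgccgcttct
Cyp1b1 core at -978 bp: cgccgcctcgGCGTGtcaggtgtcg
Cyp1b1 core at -1033 bp: cggcagctgtGCGTGcgccgccaag

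The full words at Cyp1b1 were those at -872 and -891 bp, 19 bp apart and on the same strand. Both read cttGCGTGcg over the core and its near flanks. In the + direction of the genome they lay at -39 and -20 bp from the midpoint of the peak, and the cores without the T at 67 and 122 bp. The 3 cores of the nearer Edc3 peak lacked the T.

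**Figure D5:**
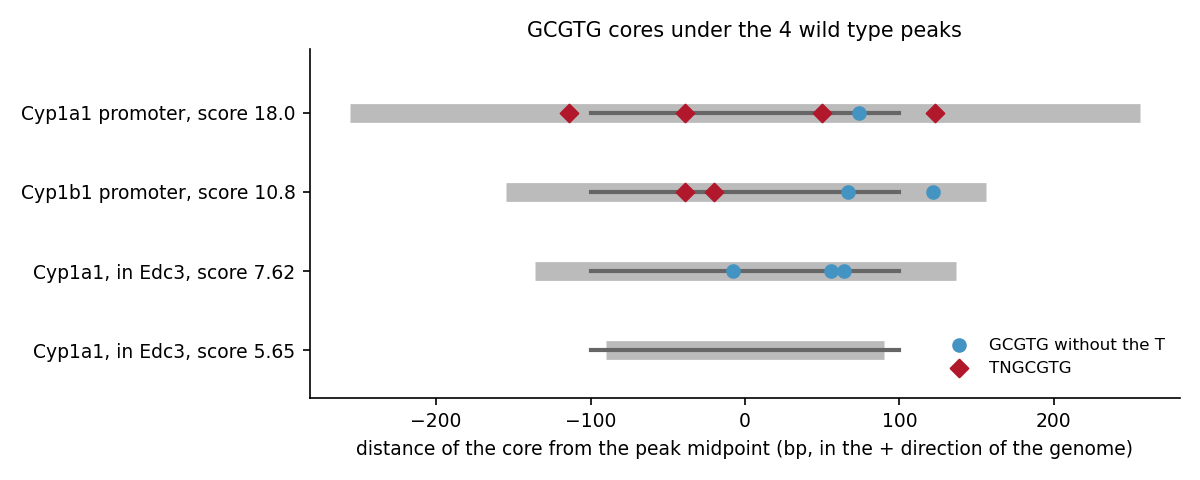
GCGTG cores under the 4 wild type peaks, by distance in bp from the peak midpoint. Grey bars give the extent of each peak, dark lines the 200 bp window, red diamonds cores within TNGCGTG and blue circles the others. The Cyp1a1 promoter has 4 red and 1 blue, the Cyp1b1 promoter 2 and 2, and the peaks in Edc3 0 red with 3 and 0 blue.

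Most copies of the word at these genes had no peak. The joint window of Cyp1a1 and Cyp1a2, 46.9 kb, held 41 GCGTG, of which 8 (19.5%) were under a peak, while peaks covered 2.06% of its length. The Cyp1b1 window, 33.5 kb, held 27, of which 4 (14.8%) were under its peak, which covered 0.931% of the length. Of TNGCGTG, 4 of 10 in the first and 2 of 8 in the second were under a peak. Over both, 12 of 68 GCGTG and 6 of 18 TNGCGTG (33.3%) lay in the 1.59% of sequence that was called. In the whole genome 4887 of 181198 TNGCGTG lay in a wild type peak. Words without a peak were thus the rule everywhere, and their share was lower at these genes than in the genome.

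Several of the uncalled words were next to the Cyp1a1 peak. The 200 bp ahead of it held 5 GCGTG, 2 of them TNGCGTG, between -1382 and -1206 bp of the start of Cyp1a1-201, and the nearest core ended 2 bases short of the peak. The sequence there was 0% soft-masked. In the 2 kb ahead of that start there were 12 GCGTG and 7 TNGCGTG, of which the peak took in 5 and 4. In the 2 kb ahead of Cyp1b1-201 there were 12 GCGTG and 3 TNGCGTG, of which the peak took in 4 and 2.

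Cyp1a2 had AHR words but no peak. Its window of 26.8 kb held 18 GCGTG (0.672 per kb) and 3 TNGCGTG (0.112 per kb). The windows of Cyp1a1 and Cyp1b1 had 0.836 and 0.805 GCGTG per kb, and 0.223 and 0.239 TNGCGTG per kb. The windows of Cyp1a1 and Cyp1a2 overlap at chr9:57677928-57693703. Words in that stretch, among them the full word at 57687858, were counted for both genes. The 3 full words at Cyp1a2 are shown with the same flanks. The first 2 lie near the far edge of the window, past the end of Cyp1a2, and the last just ahead of Cyp1a1-202. Positions are of the core.
Cyp1a2 window, chr9:57668034-57668038, - strand: ccggtccatcGCGTGagaaggaact
Cyp1a2 window, chr9:57668077-57668081, - strand: ggggtggataGCGTGccagggaaca
Cyp1a2 window, chr9:57687858-57687862, - strand: gtagatgttgGCGTGggacaactca

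In the RefSeq promoter sequences (250 bases before to 50 after the start, GRCm38), all 3 members were found. Cyp1a1 and Cyp1b1 had 1 GCGTG each and Cyp1a2 had 0, and none had TNGCGTG. Of all 32851 promoters of that length, 32.4% held GCGTG and 5.07% TNGCGTG. The words of the promoter peaks thus lay farther upstream than this stretch, and no match says only that these letters are not in it.

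The second base of TNGCGTG differed between the words with and without a peak. This was noticed after the values were seen. Under the Cyp1 peaks there were 2 TAGCGTG, 1 TCGCGTG and 3 TTGCGTG, and no TGGCGTG. Outside them there were 2, 2 and 2, and 6 TGGCGTG. In the whole genome TGGCGTG made up 42.6% of all TNGCGTG, in wild type peaks 21.9%, and in peaks under 25% soft-masked 28.2% of 78. In the same order TTGCGTG made up 31.2%, 69.0% and 37.2%, TAGCGTG 20.3%, 5.36% and 14.1%, and TCGCGTG 5.94%, 3.70% and 20.5%. The lower share of TGGCGTG in wild type peaks thus went with a higher share of TTGCGTG. The share of TAGCGTG, a word found under the Cyp1 peaks, was lower there too. With 6 and 12 words at these genes the difference is given as counts only.

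Peaks that scored at least as high as the Cyp1b1 promoter peak numbered 827, of which 729 (88.1%) had a CA repeat and 205 (24.8%) overlapped an AHR KO peak. In 4 of the 827 the window held at least 2 TNGCGTG. These were the promoter peaks of Cyp1a1 and Cyp1b1, a peak in Ahrr with 3 copies (chr13:74259914-74260186, score 10.97, 0% soft-masked) and one ahead of Lekr1 with 3 copies (chr3:65659258-65659663, score 13.5, 10.5% soft-masked). None of the 4 overlapped an AHR KO peak. This set was chosen after the values were seen. Ahrr encodes the AHR repressor, which competes for ARNT. The Lekr1 peak lay 104 kb past the end of Tiparp.

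Genes most like Cyp1a1 and Cyp1b1 were sought as those whose best peak scored at least 10, was under 25% soft-masked, held at least 2 GCGTG in its window and overlapped no AHR KO peak. Of the 853 genes with a score of at least 10, 20 were under 25% soft-masked and 12 met every condition, and these 12 shared 8 peaks. The 5 highest besides the members were the cell surface genes Ly6g6f, Ly6g6e, Ly6g6d and Ly6g6c, and their neighbour Abhd16a. All 5 owed their place to 1 peak, at chr17:35079319-35079934, with a score of 18.4, 2 GCGTG and 0 TNGCGTG. The rest were Macrod2, Lekr1, Myo16, Ahrr and Vegfa, with scores from 10.3 to 14.95.

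Other genes of the AHR pathway were taken from a list of 11, made up of the receptor, its partner, repressors and detoxifying targets. Of these 9 (81.8%) had a wild type peak within 10 kb, against 78.3% of all protein-coding genes. The median best score of the list was 7.23, against 6.31. A score of at least 10 was met by 2 (18.2%), against 3.89%. Tiparp, a repressor of AHR that modifies it by ADP-ribosylation, had the highest, at 18.9, above that of Cyp1a1. Its peak (chr3:65529461-65529867) was 26% soft-masked and held 7 GCGTG in the window but 0 TNGCGTG. Ahrr followed at 10.97. Gsta2, a glutathione transferase gene, had 9.86, and Nqo1, the quinone reductase gene, had 8.79, each in a CA repeat (75.5% and 100% soft-masked). Ahr and Aldh3a1, an aldehyde dehydrogenase gene, had no peak. Arnt had 4.65, Nfe2l2, the oxidative stress factor NRF2, had 5.84, Gsta1 had 7.23, and Ugt1a6a and Ugt1a6b, overlapping glucuronosyltransferase genes, shared a peak of 6.98. These last 2 were the only genes of the list with an AHR KO peak, 1 in each window. They make up 18.2% of the list, against 4.47% of all protein-coding genes, and their windows overlap.

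Among the 91 other cytochrome P450 genes, 80 (87.9%) had a wild type peak, with a median best score of 5.98, and 4 had a score of at least 10. The highest were Cyp2j6, at 11.96 in a window 44% soft-masked with 8 copies of the CA repeat word, and Cyp4f16 and Cyp4f17, which shared a peak of 10.8 that was 81% soft-masked with 21 copies. None of these 3 held TNGCGTG. Cyp4f16 and Cyp4f17 had the same score as Cyp1b1, over a sequence rich in CA repeats.

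Beyond 10 kb from the genes no further peak with TNGCGTG was met. Within 50 kb Cyp1b1 had 3 more peaks, of scores 8.64, 4.35 and 7.56, at least 27.3 kb from the gene, in windows without TNGCGTG. Cyp1a1 had 5 more within 50 kb, with scores from 3.82 to 8.31, in windows that also lacked it. At that distance there was still no AHR KO peak at any of the 3 genes.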

How the data were processed

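AHR ChIP-seq of mouse colon organoids was represented by 2 peak lists, 1 for wild type and 1 for AHR KO. The authors aligned single-end reads to mm10 (the same sequence as GRCm38) with BWA 0.7.15, marked duplicates with Picard 2.1.1 and called peaks against input with MACS2 2.1.1, and HOMER 4.8 is also named in the submitters' processing notes. The deposited score of each peak is, from its values, a fold enrichment (a ratio with a pseudocount of 1). One wild type list stands for the 4 cultures. Values of single cultures and read depth per library were not analysed here, so depth was read only from the score steps.

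Starts are given as deposited. In both lists together 9 peaks start at 1 and 0 at 0, so they were read as counted from 1. Peaks were assigned by an overlap of at least 1 bp with a gene extended by 10 kb (GENCODE M21). Words were counted in 200 bp windows, in whole peaks and across the loci. Repeats are lower-case bases of GRCm38. Sequence used chromosomes 1 to 19, X and Y. The background equals 1 divided by the step, minus 1 (step 0.332 in wild type, 0.777 in AHR KO). Shares have 95% Wilson intervals. No test was run. The sequence of 1 peak is not reported here. Alternatives varied the distance, score minimum, overlap, window and gene set. Genes named were the members with every peak, a list of AHR pathway genes, the 3 other Cyp genes and the 5 like genes with the highest scores, and neighbours. The members and lists were chosen with earlier results of these data known. Scripts (Python 3.11.15, pandas 2.3.3, numpy 2.4.6, matplotlib 3.10.9) were tested on simulated data.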

Additional observations from a re-analysis of the deposited data

How the results depend on the processing

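Of 48 alternatives, 35 left the value equal or within 1.5 times the one given and 13 moved it. Over whole peaks, 25% of the Cyp1 peaks rather than 50% were at least 50% soft-masked. Within 2 kb Cyp1a1 had 1 peak. Within 50 kb Cyp1a1 had 8, Cyp1a2 had 7, which include the Cyp1a1 promoter peak, and Cyp1b1 had 4. The rank of the best score moved to 175 for Cyp1a1 and 1333 for Cyp1b1 within 50 kb, and to 118 and 906 among all annotated genes, where more genes are ranked. Counting TNGCGTG instead of GCGTG raised the share of words under peaks to 33.3%. With a score of at least 10, 2 AHR pathway genes had a peak. The share of wild type peaks that overlapped an AHR KO peak moved to 23.4% at that minimum and to 5% when also under 25% soft-masked, a choice made after seeing the data, as were the RefSeq gene bounds and starts counted from 0, which changed no count. No AHR KO peak appeared at any member under the distances tried. No paired analysis was possible because each genotype has 1 joint list without values for single cultures, and leaving out each culture was not run for the same reason. One list a genotype and the lower AHR KO background limit every statement on AHR KO peaks. Intervals cover counting error only.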
